A study of Mus musculus with 6 samples.

Results

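Of 10 listed C-type lectin receptor genes, 9 had a row in all 6 count tables, out of 19349 gene rows in all: Clec4f, Clec4g, Clec4e, Clec4d, Clec4n, Clec9a, Clec12a, Cd207 and Cd209a. The remaining gene, Clec7a, is not analysed here. The list gives the genes by name and sets no measured threshold, and it was drawn up with earlier results of these data known. The tables hold single-cell transcript counts of liver non-parenchymal cells (LNPCs, the liver cells other than hepatocytes), captured on the 10X Genomics Chromium system. All mice were male C57BL/6J, 8 weeks old at purchase, and were fed a high-fat diet (HFD) for 24 weeks as a model of nonalcoholic steatohepatitis (NASH). In the last 8 weeks, the 3 vehicle-treated samples received DMSO and the 3 ginkgetin-treated samples received ginkgetin, a biflavone of Ginkgo biloba, at 10 mg/kg per day by the intragastric route. The diet was shared by both groups, and no chow-fed library is analysed here. The labels do not say that the 3 samples of a group came from separate animals, so p-values measure the spread between these samples.

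C-type lectin receptors are membrane proteins whose carbohydrate-recognition fold binds sugars, lipids or proteins on microbes, dying cells and serum glycoproteins. The activating receptors of the myeloid group (Clec4e, Clec4d, Clec4n) pair with the adaptor Fcer1g and signal through Syk and Card9 to NF-κB, whereas Clec12a carries an inhibitory motif that recruits the phosphatases Ptpn6 and Ptpn11. In mouse liver, Clec4f is the classical surface receptor of Kupffer cells, the resident macrophages, and Clec4g (LSECtin) that of sinusoidal endothelial cells, while Clec9a and Cd209a are known from dendritic cells.

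The genes lie in small clusters (RefSeq positions, assembly GRCm38.p6, the build named in the submitters' processing notes). Clec4f (chr6:83644542-83656116) and Cd207 (chr6:83671207-83677857) are neighbours. Clec4n (chr6:123229843-123247024), Clec4d (chr6:123262107-123275268) and Clec4e (chr6:123281789-123289871) follow each other, as do Clec12a (chr6:129349783-129365303) and Clec9a (chr6:129408862-129424764). Clec4g (chr8:3707066-3720695) and Cd209a (chr8:3743395-3748984) share a cluster on chromosome 8. RefSeq promoters were found for 8 of the 9 genes. The 250 bases before the start are printed for 3 neighbouring pairs, since the members of each pair were either read in the same cells (Clec4f with Cd207, Clec4d with Clec4e) or in different ones (Clec4g with Cd209a). Capitals mark a match, on either strand, to 1 of 7 motifs that were searched.
Clec4f promoter, chr6:83656117-83656366, minus strand: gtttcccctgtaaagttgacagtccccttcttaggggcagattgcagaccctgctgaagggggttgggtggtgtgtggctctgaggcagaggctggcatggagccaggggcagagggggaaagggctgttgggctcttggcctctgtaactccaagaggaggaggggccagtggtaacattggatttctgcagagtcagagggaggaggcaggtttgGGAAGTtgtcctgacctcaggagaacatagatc
Cd207 promoter, chr6:83677858-83678107, minus strand: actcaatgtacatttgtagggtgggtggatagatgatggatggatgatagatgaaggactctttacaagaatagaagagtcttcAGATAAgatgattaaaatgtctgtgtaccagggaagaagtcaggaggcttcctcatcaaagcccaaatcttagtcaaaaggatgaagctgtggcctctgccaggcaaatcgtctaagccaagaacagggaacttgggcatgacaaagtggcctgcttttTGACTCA
Clec4d promoter, chr6:123261857-123262106, plus strand: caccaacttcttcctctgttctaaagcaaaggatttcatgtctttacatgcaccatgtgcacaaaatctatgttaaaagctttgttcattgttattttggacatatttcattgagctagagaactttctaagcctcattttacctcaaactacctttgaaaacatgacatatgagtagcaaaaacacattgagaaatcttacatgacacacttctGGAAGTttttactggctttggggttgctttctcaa
Clec4e promoter, chr6:123289872-123290121, minus strand: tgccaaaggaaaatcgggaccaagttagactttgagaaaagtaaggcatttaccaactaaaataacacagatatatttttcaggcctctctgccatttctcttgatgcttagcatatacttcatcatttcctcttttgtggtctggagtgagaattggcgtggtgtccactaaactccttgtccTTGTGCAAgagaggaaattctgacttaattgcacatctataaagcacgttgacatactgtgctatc
Clec4g promoter, chr8:3720652-3720901, minus strand: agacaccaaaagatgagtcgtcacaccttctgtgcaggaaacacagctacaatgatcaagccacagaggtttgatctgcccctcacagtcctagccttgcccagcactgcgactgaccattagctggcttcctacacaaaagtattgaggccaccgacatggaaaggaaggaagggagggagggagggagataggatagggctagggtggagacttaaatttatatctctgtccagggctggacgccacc
Cd209a promoter, chr8:3748985-3749234, minus strand: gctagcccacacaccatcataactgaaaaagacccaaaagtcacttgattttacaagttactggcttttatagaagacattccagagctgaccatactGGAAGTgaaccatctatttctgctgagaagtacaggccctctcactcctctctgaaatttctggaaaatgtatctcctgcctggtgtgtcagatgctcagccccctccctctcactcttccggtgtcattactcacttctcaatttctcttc
The Clec4f and Clec4d windows each held the ETS letters GGAAGT, at 33 to 28 and at 35 to 30 bases before the start, and the Cd209a window held them at 152 to 147 bases, as did 19.7% of 32851 promoter windows of the same length. The Clec4e window held the C/EBP letters, searched as TTGCNNAA, on the strand opposite to the one printed, at 66 to 59 bases, a match that 9.56% of all windows had. The Cd207 window held the GATA letters AGATAA at 166 to 161 bases (9.99% of windows) and, at 7 to 1 bases, those of AP-1 (6.75%), searched as TGANTCA. The other motifs were found in none of the 8 windows. They were RBPJ, searched as GTGGGAA (5.42% of windows), MAF, searched as TGCTGAC (3.81%), and IRF, which was GAAA, 2 free bases and GAAA again (2.98%). The starts of Clec4g and Clec12a in the promoter table lie inside the spans listed for those genes. No motif was matched in the Clec4g window, nor in that of Clec9a, and that of Clec12a held AP-1 and C/EBP. No match lay over another. A match is a string of letters and not a shown binding site.

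The 6 libraries held 33168 barcodes and between 13128697 and 61796882 unique molecular identifiers (UMIs, counted transcripts) each, and 27544 cells passed the filter of 250 to 5000 detected genes and under 5% mitochondrial UMIs. Replicate 3 of each group had more UMIs per barcode than replicates 1 and 2 and carried another barcode set and other gene symbols: 369 gene rows had 100 or more UMIs in replicates 1 and 2 and 0 in replicate 3. Cells were clustered without the receptor genes, and 31 of 35 clusters were named as 16 classes from marker lists, each class being called "-like" because the names were rebuilt here. For each class and library, counts were summed and are given as CPM, that is, relative to all UMIs of the class in that library. Values are listed for replicates 1, 2 and 3 in that order. A gene was called changed at a Benjamini-Hochberg adjusted p under 0.05 over all genes tested and a fold over 2.

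The receptors divided the LNPCs by cell type. Clec4f was read in Kupffer-like cells at 2944 ± 1029.7 CPM (SD, n = 6 libraries), which was 49.5-fold the level of macrophage-like cells, the next class, at 59.5 ± 33.6 CPM, with no overlap between libraries. Clec4g, the sinusoidal receptor, was read in endothelial-like cells at 1995 ± 329.8 CPM, with 94.4% of all its UMIs. Both genes thus had a single dominant class, and 92.1% of the Clec4f UMIs lay in Kupffer-like cells. Cd207 (langerin), a mannose-binding receptor known from Langerhans cells, was shared by macrophage-like (441 ± 275 CPM) and Kupffer-like cells (394 ± 151 CPM), and was at most 8.56 CPM in the mean of any other named class. These means run over both groups of mice. For Cd207 the order of the 2 classes depended on the group, since every Kupffer-like library lay above every macrophage-like library in vehicle-treated mice and below in ginkgetin-treated mice, by the values given below.

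**Figure D1:**
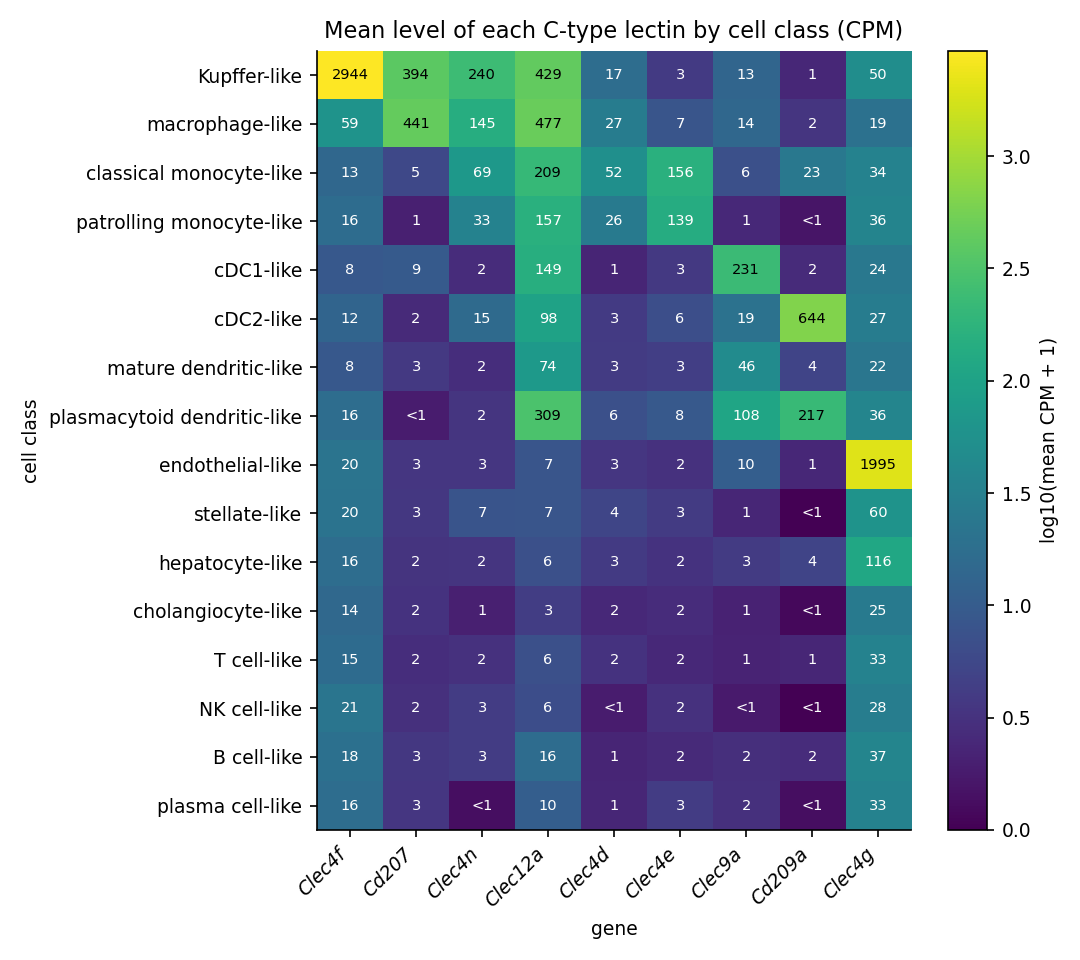
Mean level (CPM, printed in each cell; colour: log10 of mean CPM + 1) of the 9 receptor genes (columns) in the 16 named cell classes (rows), over up to 6 libraries of both groups. Clec4f stood out in Kupffer-like cells at 2944 CPM and Clec4g in endothelial-like cells at 1995 CPM, whereas Clec12a was spread over all myeloid classes.

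The other receptors had broader or lower profiles. Clec4n (Dectin-2), which binds fungal mannans, was highest in Kupffer-like cells (240.2 ± 25.2 CPM), then in macrophage-like (145 ± 68.7 CPM) and classical monocyte-like cells (69.4 ± 39.8 CPM). In vehicle-treated mice the Kupffer-like libraries lay above the classical monocyte-like and these above the macrophage-like ones, whereas in ginkgetin-treated mice Kupffer-like and macrophage-like cells overlapped and classical monocyte-like cells lay below both. Clec12a, the inhibitory receptor for uric acid crystals, was found in all myeloid classes, led by macrophage-like (477 ± 35.1 CPM), Kupffer-like (429 ± 70.4 CPM) and plasmacytoid dendritic-like cells (309 ± 77.4 CPM), with 98 ± 18.2 CPM in cDC2-like and 74.1 ± 20.1 CPM in mature dendritic-like cells (5 libraries). The monocyte classes held Clec4e (Mincle), a receptor for mycobacterial glycolipids, at 156 ± 94.1 CPM in classical and 139 ± 46.1 CPM in patrolling monocyte-like cells, and every other of the 16 classes had a mean of at most 8.18 CPM. Within vehicle-treated mice, classical monocyte-like cells lay above patrolling ones in every library, whereas in ginkgetin-treated mice the ranges overlapped, with means of 85 ± 6.65 CPM in classical and 145 ± 71.4 CPM in patrolling cells (SD, n = 3 each). Its neighbour Clec4d, which forms a receptor complex with Mincle, was highest among these classes in classical monocyte-like cells at 51.7 ± 27.2 CPM. When myeloid cells were clustered more finely (resolution 2), a small neutrophil-like class led for both genes. Over the 3 libraries with 10 or more such cells (12, 28 and 11), it held Clec4e at a mean of 209.8 CPM and Clec4d at 184 CPM. Receptors of other classes were read there too, with Clec4f at 473, 335 and 99.1 CPM and Cd207 at 326, 403 and 42.5 CPM in the same libraries, and their part in these levels was not tested. In dendritic cells, Clec9a, the sensor of actin exposed by dead cells, led in cDC1-like cells (231 ± 40.2 CPM) over plasmacytoid dendritic-like cells (108 ± 27.7 CPM). Cd209a, a homologue of human DC-SIGN, led in cDC2-like cells (644 ± 147 CPM) over plasmacytoid dendritic-like cells (217 ± 83.2 CPM), and in neither case did the ranges of these 2 classes overlap. The leading class changed with the class rule for some receptors. It was kept for 9 of 9 receptors with no cell filter, 8 without the cells of highest doublet score, 7 with marker scores in place of clusters, 6 at resolution 2 and 4 with the UMI filter (250 to 5000 UMIs per cell). Cd207 led in Kupffer-like cells under the last 4 of these rules, and Clec12a did so with marker scores and with the UMI filter. With the UMI filter, patrolling monocyte-like cells led for Clec4e and plasmacytoid dendritic-like cells for Clec9a and Cd209a, in a set with no cDC1-like or cDC2-like class. Levels across classes are descriptions, since the classes were made from the same cells, and CPM of 3′-counted transcripts compares 1 gene across classes rather than genes with each other.

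The genes most like each receptor over the 16 class means, among 6906 genes with a class mean of 50 CPM or more, were largely known genes of the same cells. Clec4f was matched by Cd5l (Pearson r = 0.954, log2(CPM + 1)), Vsig4 (0.938) and Folr2 (0.932); Cd5l, Vsig4 and Folr2 are among the Kupffer markers that named the class. Cd207 was matched by Mmp13 (0.962), Arhgap19 (0.932) and Vsig4 (0.930). For the endothelial receptor Clec4g, the most alike were Oit3 (0.987), itself an endothelial marker used here, Adgrf5 (0.977) and Myct1 (0.976). Clec4n went with the pan-macrophage gene Adgre1 (0.973), Fcgr1 (0.959) and Pgd (0.954), and Clec12a with Mpeg1 (0.974), Cd68 (0.971) and Pld4 (0.949). The monocyte receptor Clec4e went with Trem3 (0.948), Ly6i (0.939) and Chil3 (0.922), and Clec4d with Pla2g7 (0.947), Pilra (0.945) and Lyz2 (0.928). The dendritic receptors had the weakest partners, namely Mycl (0.865), Xcr1 (0.853) and Tnni2 (0.849) for Clec9a, and Clec10a (0.895), Mgl2 (0.892) and Cd209d (0.853) for Cd209a. Xcr1, Chil3, Adgre1 and Cd68 were markers too. The 16 points share libraries and depth, and r is given as a description.

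In Kupffer-like cells, Clec4f, the receptor that binds galactose-terminated glycans, was not called changed by ginkgetin. It was counted at 2062, 2212 and 3373 CPM in vehicle-treated and at 2348, 2871 and 4799.6 CPM in ginkgetin-treated mice. The groups overlapped, with means of 2549 ± 718 and 3339.8 ± 1291 CPM (SD, n = 3 each). In edgeR, fold changes are relative to the bulk of genes, and Clec4f gave a log2 fold change of -0.043 (SE 0.30, adjusted p 0.954 by edgeR), with the sign turning to 0.40 when library sizes were used as counted. The scaling by TMM moved the median of all genes by -0.46 on the log2 scale in Kupffer-like cells, by -0.33 in macrophage-like cells and by at most 0.14 in the other classes tested, so plain CPM and fold changes can point apart.

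The Kupffer-like class was held by different clusters in the 2 groups, and every value in it should be read with that. Cluster 5 held 699, 410 and 403 cells of vehicle-treated but 5, 17 and 8 of ginkgetin-treated mice, and cluster 12 held 1, 12 and 5 against 84, 181 and 506 cells. Cluster 12 had all 9 Kupffer markers, and cluster 5 lacked 3 of them by the detection rule: Timd4, the phosphatidylserine receptor of long-resident Kupffer cells, Marco and Cd163. Over the whole class, Timd4 was at 69.8, 71.1 and 79.1 CPM against 450.1, 306 and 496 CPM, and Trem2, the lipid receptor of NASH-associated macrophages, at 682, 728 and 747 CPM against 27.4, 56 and 34.1 CPM. Cells of the ginkgetin-treated group were also shallower, with median UMIs of 2201, 1868.5 and 2216.5 against 9834, 6691.5 and 19750.5. Whether fewer cells of a kind or less RNA per cell lay behind a difference cannot be told apart from summed counts.

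Clec4f was high in cells with and without a Timd4 UMI. In cells of vehicle-treated mice it was 3141, 3539.5 and 4090.1 CPM with Timd4 and 1767, 1901 and 3043 CPM without. In ginkgetin-treated mice the values were 2221, 3113 and 5098 CPM with Timd4 and 2713, 2595 and 3414 CPM without. In vehicle-treated mice, Clec4f was thus higher in the Timd4-positive cells of each library, and in ginkgetin-treated mice it was so in 2 of 3 libraries. The share of cells with a Timd4 UMI depends on depth, which differed between the groups.

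Of the 7 receptors tested in Kupffer-like cells, 2 were called, Clec4d lower and Clec4g higher with ginkgetin, where 8.54% of all 9158 genes were called (4.41% lower and 4.13% higher). With the replicate number as a block, Cd207 was called as well (3 of 7, against 15.3% of all genes). Cd207 was counted at 636, 344 and 486 CPM in vehicle-treated and at 395, 303 and 202 CPM in ginkgetin-treated mice. The ranges overlapped, but each ginkgetin library lay below the vehicle library of the same number, with a log2 fold change of -1.09 (SE 0.39, adjusted p 0.111 by edgeR) without the block, and -1.14 ± 0.23 (SE), edgeR adjusted p 0.00384 with it. Within cluster 5, Cd207 was at 636, 349 and 486 CPM in vehicle-treated mice and at 826 CPM in ginkgetin replicate 2 (17 cells). Within cluster 12, it was at 0 CPM in vehicle replicate 2 (12 cells) and at 419, 249 and 202 CPM in ginkgetin-treated mice. Other libraries had under 10 cells there. Cd207 was thus lower with ginkgetin in neither cluster, on few cells, and this was not tested. Split by Timd4, Cd207 in vehicle-treated mice was lower in cells with a Timd4 UMI (303, 207 and 327 CPM) than in those without (727, 376 and 558 CPM) in all 3 libraries. In ginkgetin-treated mice the values were 497, 270.2 and 222 CPM with Timd4 and 106, 342 and 106 CPM without, so that the order was opposite in replicates 1 and 3. Among cells with Timd4 the groups overlapped, and among those without it every ginkgetin library lay below every vehicle library. This split was made after the values had been seen and was not tested.

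The activating receptor Clec4n and the inhibitory Clec12a were not called in Kupffer-like cells. Clec4n was counted at 259, 263 and 227 CPM in vehicle-treated and at 211, 215 and 265 CPM in ginkgetin-treated mice, with a log2 fold change of -0.55 (SE 0.21, adjusted p 0.132 by edgeR) and overlapping groups. Clec12a was counted at 535, 474 and 441 CPM and at 337, 381 and 408 CPM, so that all 3 ginkgetin libraries lay below the vehicle libraries, as did 8.48% of all genes. Its log2 fold change of -0.80 (SE 0.22, adjusted p 0.0596 by edgeR), reached 0.0131 with the block but stayed under a fold of 2, and was -0.35 without TMM. Clec9a, tested at 8.61 to 15.7 CPM, was not called.

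Clec4d is named here although it lies below the 50 CPM set for fold changes, and was chosen after its values were seen because it was called. It was counted at 24.7, 31.5 and 19.6 CPM in vehicle-treated and at 7.83, 12.9 and 2.84 CPM in ginkgetin-treated Kupffer-like cells. The ginkgetin values stand on 2, 6 and 5 UMIs, against 183, 97 and 149, and the first is under the floor of 3 counts (11.7 CPM there). Its log2 fold change of -2.45 (SE 0.60, adjusted p 0.046 by edgeR) (0.00102 with the replicate block), was lost with marker scores in place of clusters (adjusted p 0.178), at resolution 2 (0.19), with no filter on genes (0.0536), without TMM (0.0529), and on leaving out any library other than vehicle replicate 3 (lowest adjusted p 0.0954, highest 0.204). With such a library left out, 0 to 249 genes were called in all, against 782 of 9158 in the main fit. The macrophage markers were lower beside it, with a summed level of 1957 to 3147 CPM in vehicle-treated and 129 to 476 CPM in ginkgetin-treated mice, 7 of 8 markers not overlapping, and their part in this result was not tested.

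**Figure D2:**
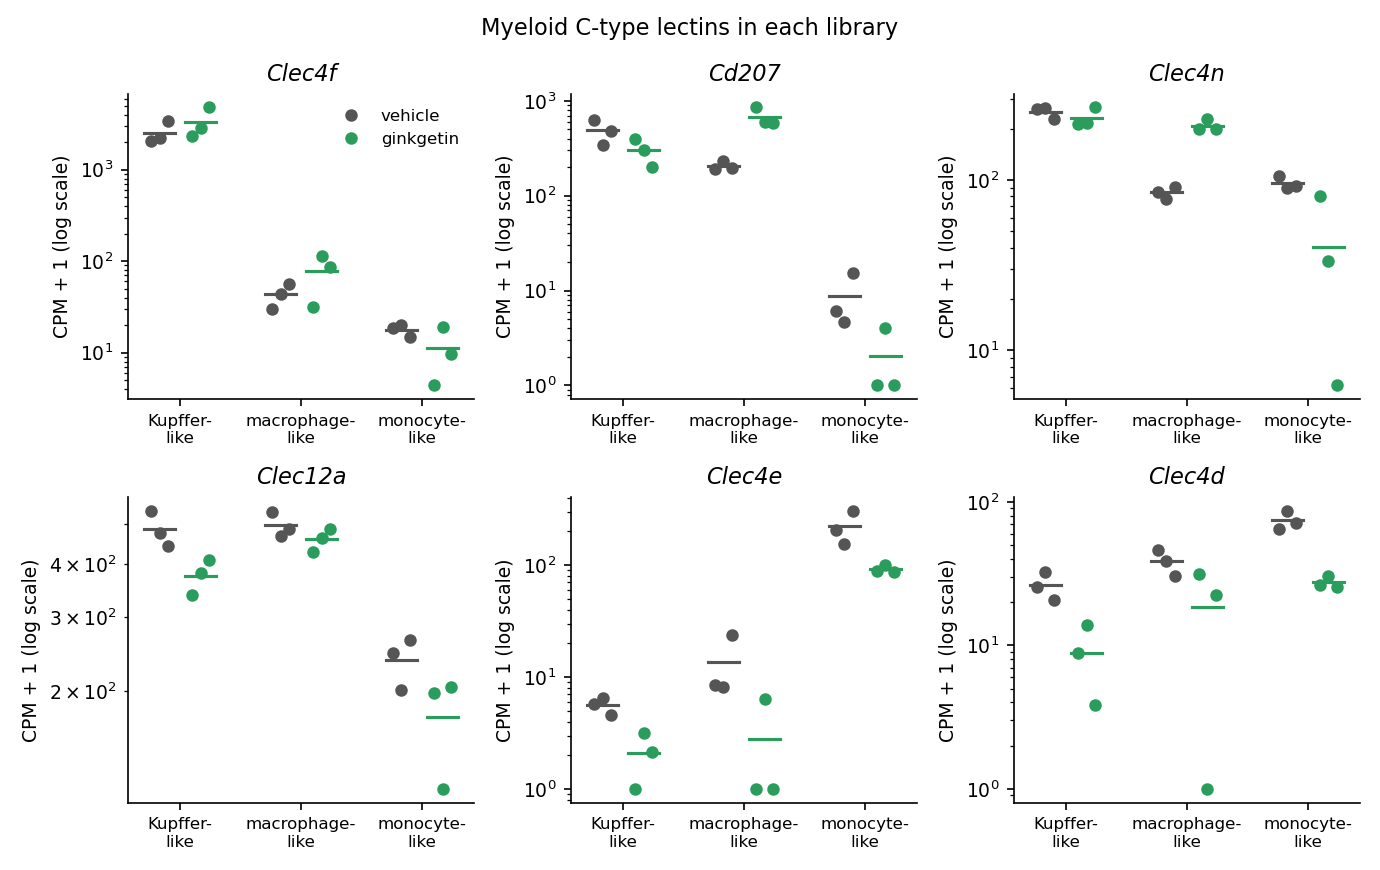
Level of 6 receptors (CPM + 1, log scale) in each library of the Kupffer-like, macrophage-like and monocyte-like classes; points are libraries and bars group means of vehicle-treated (grey) and ginkgetin-treated (green) mice, n = 3 each. Cd207 and Clec4n lay higher with ginkgetin in macrophage-like cells, where the groups did not overlap, and Clec4e and Clec4d lay lower in monocyte-like cells.

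Macrophage-like cells outside the Kupffer class showed the opposite order for Cd207. It was counted at 192, 231 and 196 CPM in vehicle-treated and at 853, 597 and 577 CPM in ginkgetin-treated mice. All 3 ginkgetin libraries were above all 3 vehicle libraries, as were 16.5% of all genes, and the means were 206 ± 21.5 and 676 ± 154 CPM (SD, n = 3 each). Clec4n also lay higher, at 83.3, 76.7 and 90 CPM against 198, 226 and 197 CPM, again with no overlap. Without a block, none of the 8 receptors tested was called by edgeR, where 0.19% of 7911 genes were (15 genes). Of the 8 receptors, 4 had an unadjusted p under 0.05 by edgeR, as had 1362 of the 7911 genes. DESeq2 called 2 receptors, against 319 genes, and limma-voom 0, against 8 genes. Cd207 had a log2 fold change of 1.39 (SE 0.26, adjusted p 0.0714 by edgeR), and Clec4n a log2 fold change of 1.01 (SE 0.23, adjusted p 0.0962 by edgeR). With the replicate block, 5 of 8 were called, against 6.95% of all genes. Cd207 then gave 1.37 ± 0.21 (SE), edgeR adjusted p 1.55e-08, and Clec4n 1.01 ± 0.24 (SE), edgeR adjusted p 0.000752.

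The other 3 receptors called with the block in macrophage-like cells were low. Clec4d was counted at 45, 38 and 29.2 CPM against 30.5, 0 and 21.6 CPM (block adjusted p 0.0352, edgeR), and Clec4e at 7.54, 7.10 and 23 CPM against 0, 5.38 and 0 CPM (block adjusted p 0.0165, edgeR), both lower with ginkgetin. Clec4g, at 11.5, 10.7 and 4.15 CPM against 0, 69.9 and 15.4 CPM, was higher with an edgeR block adjusted p of 0.0111, although 1 ginkgetin library had no UMI of it. The floor of 3 counts stood at 45.7, 16.1 and 9.26 CPM in the 3 ginkgetin libraries of this class, so several of these values lie under it. Clec12a differed little (534, 468 and 485 CPM against 427, 462 and 484 CPM; log2 fold change of -0.42 (SE 0.22, adjusted p 0.372 by edgeR)). Clec4f stayed low at 28.9, 43 and 55.1 CPM against 30.5, 113 and 86.4 CPM, the last on 2, 21 and 28 UMIs (log2 fold change of 0.69 (SE 0.40, adjusted p 0.425 by edgeR)).

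The macrophage-like class was small and of another make-up after ginkgetin. It held 510, 291 and 683 cells of vehicle-treated but 13, 38 and 36 cells of ginkgetin-treated mice. Trem2 was at 1378, 1768 and 1687 CPM against 396, 285 and 521 CPM, and Cx3cr1, the fractalkine receptor, at 236, 282 and 305 CPM against 731, 968 and 685 CPM. The 8 markers of the class summed to 5035 to 6181 CPM against 1554 to 3172 CPM. When the myeloid cells were clustered more finely, 11 of 13, 35 of 38 and 32 of 36 of these ginkgetin cells fell into clusters that no marker list named, with 148, 86 and 184 of the vehicle cells. Within those cells alone, Cd207 was 132, 258 and 149 CPM against 1018, 579.6 and 684 CPM. Clec4n was 95, 109 and 120.3 CPM against 200, 225 and 227 CPM, so both receptors were higher with ginkgetin in every library of this subset too. The subset still differed in make-up: Trem2 was 1034, 1281 and 1098 CPM against 327, 287 and 278 CPM, and Cx3cr1 302, 449.7 and 504 CPM against 818, 1013 and 750.01 CPM. Vsig4, a Kupffer marker and one of the genes most like Cd207, was 83.2, 175 and 49.5 CPM against 436, 349 and 245 CPM, and the part of these differences was not tested. When each cell was assigned by its marker score instead of its cluster, the higher Cd207 in macrophage-like cells was no longer seen (log2 fold change -0.025 ± 0.36, SE).

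The change of Cd207 and Clec4n differed between Kupffer-like and macrophage-like cells. In an edgeR fit of both classes with the library as a block, added after the data had been seen, the log2 change in macrophage-like minus that in Kupffer-like cells was 2.54 ± 0.25 (SE), edgeR adjusted p 1.67e-10 for Cd207, and 1.48 ± 0.24 (SE), edgeR adjusted p 2.65e-05 for Clec4n. These were the 2 receptors called of 8 tested, against 3.13% of 10099 genes. Both kept their call in each of the 10 alternatives run, including the marker scores, where the difference for Cd207 was 1.29 ± 0.35 (SE), edgeR adjusted p 0.0377. Clec12a, the other receptor high in both classes, gave 0.35 ± 0.22 (SE), edgeR adjusted p 0.464, and was not called.

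In monocyte-like cells, the Mincle complex genes Clec4e and Clec4d fell with ginkgetin by the blocked fit. Clec4e was counted at 206, 155 and 305 CPM in vehicle-treated and at 88.2, 99.6 and 85.3 CPM in ginkgetin-treated mice, and Clec4d at 64.1, 85.5 and 70 CPM against 25.4, 29.5 and 24.4 CPM. For both genes every ginkgetin library was below every vehicle library, as for 9.01% of all genes. Without a block, edgeR called none of the 7 receptors, nor any of 8248 genes (0.0%), while 1174 genes, 4 receptors among them, had an unadjusted p under 0.05. DESeq2 called 4 of the 7 receptors, against 133 of all 8248 genes. By limma-voom, 0 receptors and 0 genes in all were called. Clec4e had a log2 fold change of -1.34 (SE 0.29, adjusted p 0.186 by edgeR), and Clec4d a log2 fold change of -1.56 (SE 0.26, adjusted p 0.169 by edgeR). With the replicate block, 3 of 7 were called against 2.97% of genes, and Clec4e fell (-1.33 ± 0.26, SE; edgeR adjusted p 0.03), as did Clec4d (-1.58 ± 0.21, SE; edgeR adjusted p 0.0122), the last being Clec4g.

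Clec4e was read in both monocyte classes. In classical monocyte-like cells it was 209.8, 156 and 318 CPM against 79.2, 83.5 and 92.2 CPM, and in patrolling monocyte-like cells 142, 127 and 127 CPM against 169, 202 and 65.1 CPM. The groups did not overlap in the former, as in 9.13% of genes, and overlapped in the latter, where the log2 fold change of 0.052 (SE 0.47, adjusted p 0.987 by edgeR), came from 27, 49 and 46 ginkgetin cells, and the difference between these 2 classes was not tested. Within classical monocyte-like cells, more cells carried a UMI of both genes than the product of their shares in 5 of 6 libraries, though the ginkgetin shares stand on 1, 1 and 0 cells: at equal depth, 1.84, 1.84 and 3.35% of cells against products of 0.727, 0.852 and 1.33% in vehicle-treated, and 1.15, 0.595 and 0% against 0.119, 0.159 and 0.232% in ginkgetin-treated mice. Monocyte-like cells were counted at 837, 475 and 568 in vehicle-treated and 114, 217 and 129 in ginkgetin-treated mice, and the markers of classical monocytes summed to 6729 to 9150 CPM against 4912 to 6700 CPM, 2 of 8 lower with no overlap. The macrophage markers summed to 1043 to 1279 CPM against 595 to 755 CPM in the same cells, 4 of 8 lower with no overlap, and macrophage-like cells held 27.3% of all Clec4d UMIs. The part of either difference in these results was not tested.

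Clec4n and Clec12a were lower in each ginkgetin library of monocyte-like cells than in the vehicle library of the same number but were not called. Clec4n was counted at 104, 88.7 and 90.5 CPM against 79.7, 32.5 and 5.22 CPM, the last on 6 UMIs, so that every ginkgetin library lay below every vehicle library, as for 9.01% of all genes, and replicate 3 stood far below the others (log2 fold change of -1.33 (SE 0.79, adjusted p 0.479 by edgeR); 0.0882 with the replicate block). Clec12a was counted at 246, 200.4 and 263 CPM against 197, 116 and 204 CPM, which overlapped (log2 fold change of -0.55 (SE 0.27, adjusted p 0.411 by edgeR)). Cd209a, hardly expressed in these cells, was at 12.5, 4.73 and 6.89 CPM against 10.2, 37.6 and 44.4 CPM, with a log2 fold change of 1.80 (SE 0.51, adjusted p 0.226 by edgeR). Against macrophage-like cells, the change of Clec4n in monocyte-like cells differed by -2.82 ± 0.37 (SE), edgeR adjusted p 6.33e-06, and that of Cd207 by -4.23 ± 0.74 (SE), edgeR adjusted p 0.000499, 2 of 9 receptors against 1.75% of 9627 genes. Cd207 was at most 14.4 CPM in any monocyte-like library and at 0 in 2 of them, and was too low to be tested in that class alone, so its difference is not read as a change in monocyte-like cells. The size of that difference for Cd207 was unsteady, at -9.02 without ginkgetin replicate 2 and -7.84 without the cells of highest doublet score. With marker scores in place of clusters it was 0.17 ± 0.62 (SE), edgeR adjusted p 0.961, while Clec4n kept its call. Between monocyte-like and Kupffer-like cells no change of a receptor differed by this fit (0 of 9, against 4.27% of 10059 genes), with 4 receptors at an unadjusted p under 0.05, a count not taken over all genes.

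**Figure D3:**
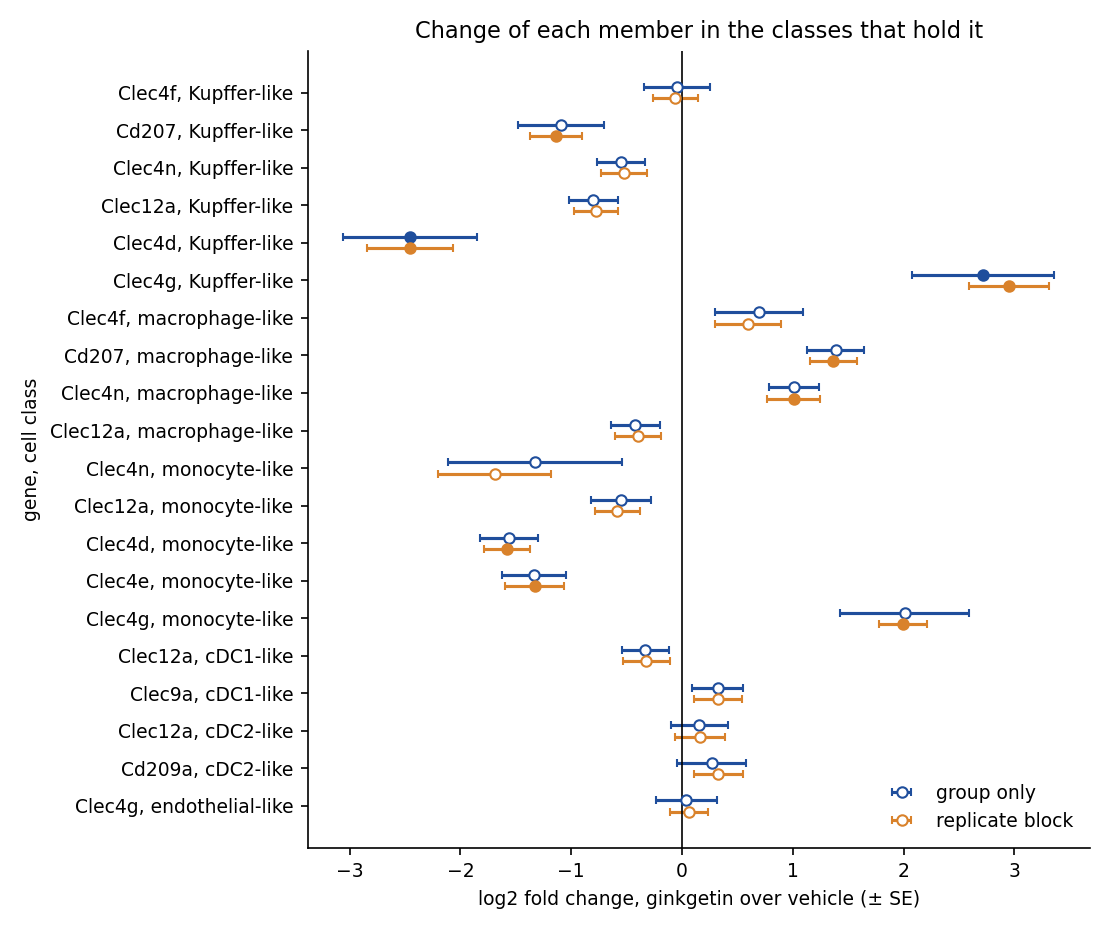
Log2 fold change, ginkgetin over vehicle, with its SE (edgeR on summed counts, n = 3 libraries per group), for each receptor and class with a mean of 50 CPM or more in a group, and for Clec4d in Kupffer-like cells; blue is the fit on group only, orange the fit with the replicate block, and filled points were called. Cd207 was below 0 in Kupffer-like and above 0 in macrophage-like cells; the sign of Clec4f in Kupffer-like cells turned without TMM.

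The dendritic receptors were not called changed in the classes where they led. Clec9a in cDC1-like cells was counted at 234, 203 and 204 CPM in vehicle-treated and at 245, 197 and 303 CPM in ginkgetin-treated mice, with overlapping groups and a log2 fold change of 0.32 (SE 0.23, adjusted p 0.517 by edgeR). Cd209a in cDC2-like cells was at 802, 562 and 403 CPM against 689.8, 641 and 769 CPM, with overlapping groups and a log2 fold change of 0.27 (SE 0.31, adjusted p 0.751 by edgeR). For neither gene was the difference larger than the spread between replicates. Clec12a was at 197, 154 and 164 CPM against 116, 117 and 148 CPM in cDC1-like cells, where the groups did not overlap, as in 13.9% of genes (log2 fold change of -0.33 (SE 0.21, adjusted p 0.47 by edgeR)), and at 102, 63.7 and 115 CPM against 109, 94 and 104 CPM in cDC2-like cells (log2 fold change of 0.16 (SE 0.26, adjusted p 0.835 by edgeR)). No receptor was called in cDC1-like (0 of 3) or cDC2-like cells (0 of 5), nor was any gene (0.0% of 5947 and 0.0% of 5929). At an unadjusted p under 0.05 by edgeR were 938 and 819 genes, 1 and 2 receptors among them. DESeq2 called no receptor there, against 44 and 42 genes, and limma-voom no receptor and 0 genes. Clec9a was low in cDC2-like cells, at 14.7, 13.3 and 8.81 CPM against 18.2, 30.3 and 28.8 CPM, which did not overlap, as in 6.75% of genes. In these fits, 1 receptor, Clec4g, was called with the replicate block in cDC1-like cells (3.35% of genes) and none in cDC2-like cells (1.6%).

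Plasmacytoid dendritic-like cells held both dendritic receptors at lower levels. Clec9a was at 77.7, 111 and 129 CPM against 118, 71.8 and 140.3 CPM, and Cd209a at 255, 173 and 133 CPM against 361, 221 and 158 CPM. Clec12a in the same cells was at 402, 293 and 234 CPM against 299, 226 and 400.4 CPM. All 3 overlapped between groups, and no fold change was fitted for this class. In mature dendritic-like cells, Clec9a was at 21.7, 39.8 and 55 CPM against 29.8 and 85.3 CPM in the 2 ginkgetin libraries with 10 or more such cells.

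Clec4g in endothelial-like cells, where LSECtin is a receptor for glycoproteins of the sinusoid, did not differ between the groups beyond the spread. It was counted at 1880.3, 2014 and 1633 CPM in vehicle-treated and at 2020.0, 1822 and 2602 CPM in ginkgetin-treated mice. The groups overlapped, with means of 1842 ± 193 and 2148 ± 405 CPM (SD, n = 3 each) and a log2 fold change of 0.039 (SE 0.28, adjusted p 0.987 by edgeR). Cells with a UMI of Vwf, a gene of larger vessels, held less Clec4g, at 1172, 848 and 1092 CPM against 674, 865 and 925 CPM. Pericentral cells, taken as those with Wnt2 or Rspo3 and no Vwf, held 2071, 2385 and 2229 CPM against 2075, 2011 and 3022 CPM. The remaining cells were close to these, at 2064, 2143 and 1764 CPM against 2109.8, 1926 and 2701 CPM. In all 6 libraries, Clec4g was thus lowest in the Vwf-positive cells. No receptor was called in endothelial-like cells by edgeR (0 of 6, against 0.662% of 10426 genes), DESeq2 (324 genes) or limma-voom (33 genes). At an unadjusted p under 0.05 by edgeR were 2 receptors and 1469 genes in all. With the replicate block, 2 receptors were called (4.2% of genes), Clec12a (-2.35, edgeR adjusted p 0.019) and Clec4d (-2.14, edgeR adjusted p 0.0423). Of these myeloid genes, Clec12a was at 15.5, 12.4 and 6.57 CPM against 1.97, 5.77 and 0.688 CPM in these cells. Clec4d was at 4.51, 3.92 and 3.58 CPM against 0.656, 1.88 and 0.573 CPM, so both genes were low. The macrophage markers were lower beside them, at a summed 1272 to 2123 CPM against 573 to 736 CPM, 5 of 8 not overlapping, and their part in this result was not tested.

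Outside the endothelial class, Clec4g rose with ginkgetin in Kupffer-like cells, as in other classes named below. It was counted at 12.7, 14.3 and 3.30 CPM in vehicle-treated and at 47, 146 and 76.1 CPM in ginkgetin-treated mice, on 94, 44 and 25 against 12, 68 and 134 UMIs, with no overlap, as in 29.4% of genes (log2 fold change of 2.72 (SE 0.64, adjusted p 0.0415 by edgeR); 0.00022 with the replicate block). Leaving out any library other than vehicle replicate 3 ended the call without the block (adjusted p 0.0798 to 0.166, edgeR), as did marker scores in place of clusters (0.0605). With such a library left out, 0 to 249 genes of all were called. T cell-like cells, which should lack the gene, had 13.2, 12.6 and 7.48 CPM against 32.4, 99.6 and 33.3 CPM, also without overlap, as in 5.21% of genes of that class. Monocyte-like cells had 13.4, 18.9 and 6.12 CPM against 40.7, 87.4 and 33.1 CPM (log2 fold change of 2.01 (SE 0.58, adjusted p 0.233 by edgeR); 0.00654 with the block), with no overlap, as in 9.19% of genes, and cDC1-like cells 7.42, 3.43 and 4.22 CPM against 18.4, 87.7 and 20.6 CPM (0.00389 with the block), again with no overlap, as in 6.34% of genes. Clec4g was also higher without overlap in NK cell-like, B cell-like, cDC2-like, cholangiocyte-like, mature dendritic-like and hepatocyte-like cells. Such non-overlap held for 6.28% of genes in B cell-like and 6.75% in cDC2-like cells, and was not counted in the rest. Hepatocyte-like cells had 37.5, 3.95 and 27.6 CPM against 364 and 148 CPM in ginkgetin replicates 2 and 3. The groups overlapped for Clec4g in macrophage-like, patrolling monocyte-like, plasmacytoid dendritic-like, plasma cell-like and stellate-like cells. In the last, the counts were 26.5, 51.5 and 60.6 CPM against 21, 121 and 79.2 CPM. All 10 endothelial markers were higher in ginkgetin-treated Kupffer-like cells with no overlap, their sum being 137, 139 and 151 CPM against 450.1, 1399 and 544 CPM. Per 100 UMIs of these markers, Kupffer-like cells held 9.28, 10.3 and 2.19 Clec4g UMIs in vehicle-treated and 10.4, 10.5 and 14 in ginkgetin-treated mice, a ratio that was close between the groups in replicates 1 and 2 and higher with ginkgetin in replicate 3. T cell-like cells held 25, 16.4 and 12 against 17.3, 12.1 and 17.7, and endothelial-like cells themselves 27.7, 24.2 and 14 against 16.2, 14.3 and 15. Endothelial-like cells numbered 1242, 547 and 407 in vehicle-treated and 1276, 3365 and 1132 in ginkgetin-treated mice.

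**Figure D4:**
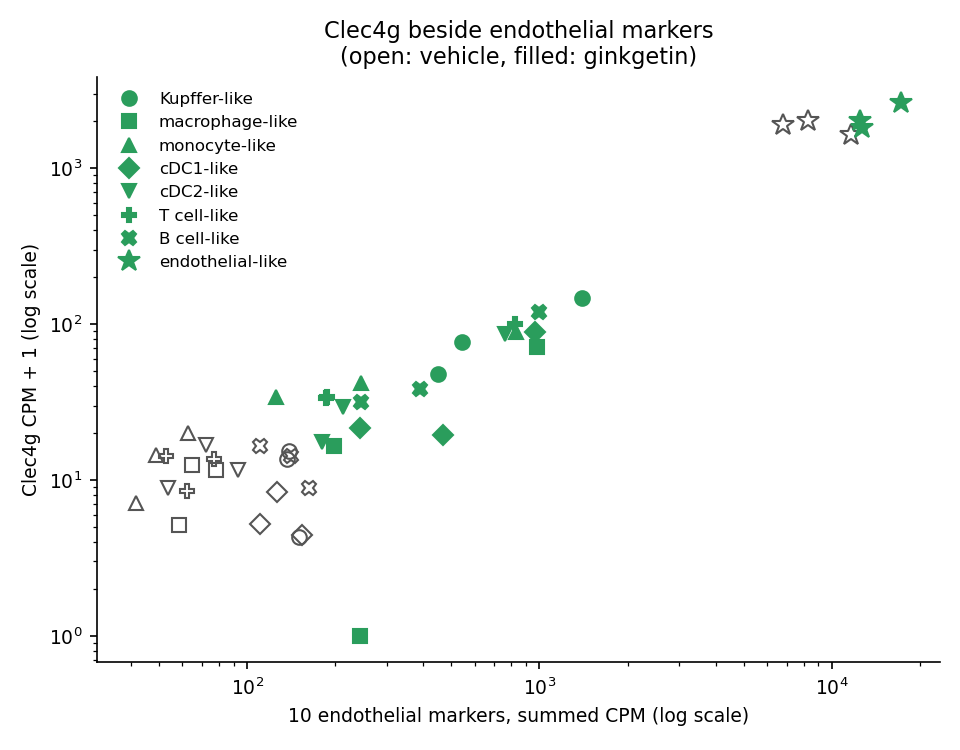
Clec4g (CPM + 1, log scale) against the summed level of 10 endothelial markers (CPM, log scale) in 8 cell classes; each point is 1 library of a class, open for vehicle-treated and filled for ginkgetin-treated mice. Both were above every vehicle library in all ginkgetin libraries of 6 of the 7 classes plotted outside the endothelium, the exception being macrophage-like cells, where 1 ginkgetin library had no Clec4g UMI (such non-overlap held for 5.21% of genes in T cell-like, 6.28% in B cell-like and up to 29.4% in Kupffer-like cells), and the endothelial-like libraries stood apart at 1633 to 2602 CPM of Clec4g.

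Shares of cells with a UMI were compared after each cell was thinned to 1000 UMIs, since depth differed between libraries. Clec4f was detected in 65.3, 67.8 and 82% of Kupffer-like cells of vehicle-treated and in 93.3, 87.9 and 95% of ginkgetin-treated mice, beside background means of 2.24% and 1.36% in the T cell-like class. Unthinned shares were 82.9, 82 and 90.4% against 100, 96 and 96.7%. All 3 ginkgetin libraries were above the vehicle libraries, although the fitted level was not called and its sign turned without TMM. How many of all genes did so by share was not counted. By CPM, 29.4% of genes in this class were higher without overlap, while Clec4f overlapped. The Kupffer-like cells of the 2 groups also came from different clusters. Of the Kupffer-like cells, 2 in vehicle replicate 3 and 58 in ginkgetin replicate 3 were too shallow to enter. In macrophage-like cells, Clec4f was at a mean of 2.79% against 6.24%, which in vehicle-treated mice was close to the background of T cell-like cells.

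Shares of the other receptors were read in the same way. Cd207 was detected in 9.22, 11.7 and 7.47% of macrophage-like cells against 46.2, 23.7 and 25%, and in 31.6, 18.2 and 24.1% of Kupffer-like cells against 24.7, 20.2 and 11%. Clec4e was detected in 13.7, 12.2 and 20.1% of monocyte-like cells against 6.14, 6.91 and 5.43%, Clec4d in 5.38, 6.53 and 5.81% against 2.63, 2.76 and 3.88%, and Clec4n in 7.65, 7.79 and 7.57% against 2.63, 2.30 and 1.55%. The same genes were found in at most 0.322% of T cell-like cells in the mean of either group. Clec9a in cDC1-like cells (25.3, 16.7 and 15.5% against 15.7, 11.5 and 31.9%) and Cd209a in cDC2-like cells (40.8, 28.4 and 29.5% against 34.6, 48.5 and 38.2%) overlapped. Clec4g was detected in 78.8, 81 and 75.2% of endothelial-like cells against 84.5, 81 and 86%, and in 1.43, 0.711 and 0.739% of Kupffer-like cells against 5.62, 12.6 and 11.4%, where the T cell-like means were 0.986% and 5.44%. With 3 libraries against 3, the two-sided exact permutation test cannot go below p = 0.1. That value was reached in 19 of 54 pairs of receptor and class, 8 lower (14.8%) and 11 higher (20.4%) with ginkgetin, and the smallest adjusted p was 0.284.

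**Figure D5:**
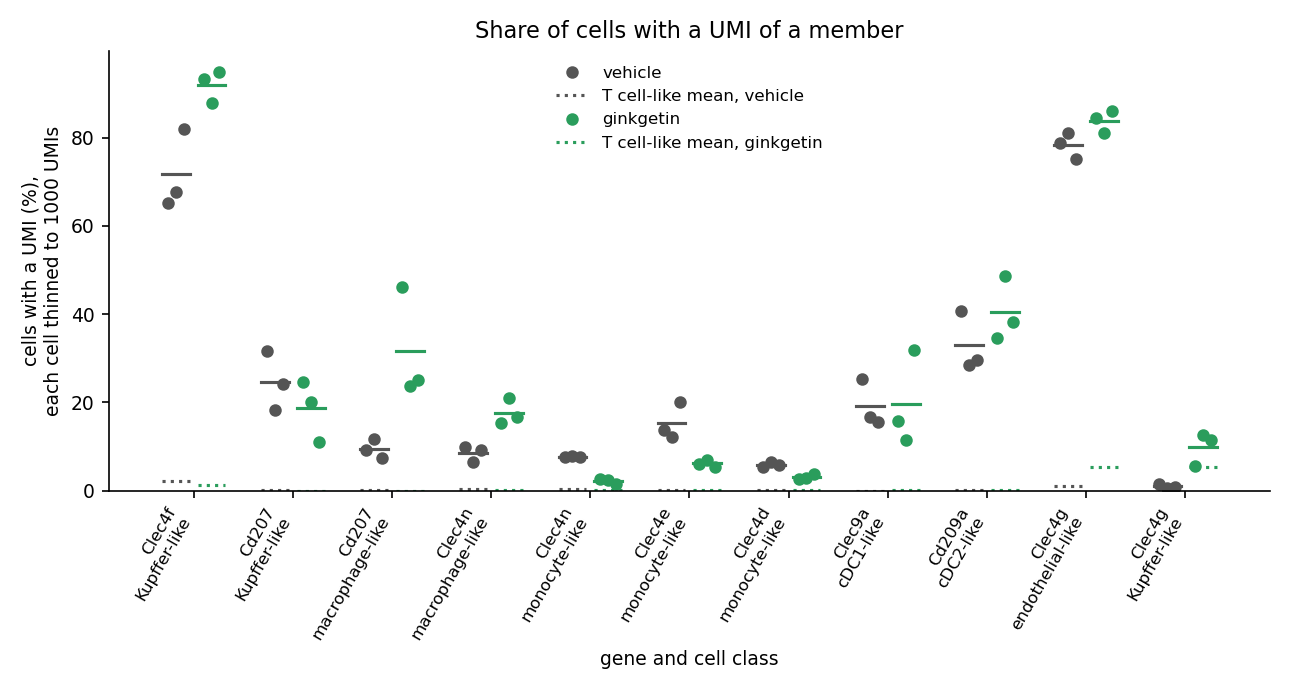
Share of cells with at least 1 UMI of a receptor (%, each cell thinned to 1000 UMIs) in the classes that hold it, and for Clec4g also in Kupffer-like cells; points are libraries, bars group means (n = 3), and dotted lines the mean share in T cell-like cells. Clec4f was near 90% in ginkgetin-treated Kupffer-like cells (87.9, 93.3 and 95.0%), and Clec4n in monocyte-like cells lay at 1.55 to 2.63% against 7.57 to 7.79%.

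Genes that work with these receptors were read from the same fits. Of 25 genes of the signalling route (such as the adaptors Fcer1g and Tyrobp, the kinase Syk, and Card9, Bcl10 and Malt1), 24 were tested in Kupffer-like cells, and edgeR called none, DESeq2 1 and limma-voom 1, with a median log2 fold change of 0.01 beside 0.03 over all genes. Of all 9158 genes, DESeq2 called 1114 and limma-voom 980. With the replicate block, the adaptors Fcer1g (-1.19, edgeR adjusted p 0.00253) and Tyrobp (-1.15, 0.00339) were lower with ginkgetin. Traf6, a ubiquitin ligase of the NF-κB route, was higher (1.09, 0.0421). These were the only signalling genes of the 24 called, where that fit called 15.3% of all genes. Of 22 other C-type lectins, 13 were tested in Kupffer-like cells and 4 were called, where 8.54% of all genes were. No lectin of this list was called on leaving out any 1 library other than vehicle replicate 3, and 2 were with marker scores or with the UMI filter. With such a library left out, 0 to 249 genes of all were called. The mannose receptor Mrc1 (1.22; edgeR adjusted p 0.0233) and the endothelial Clec14a (2.95; 0.029) rose, the latter beside the endothelial markers given above. Clec5a, which signals through Tyrobp (-2.97; 0.0239), and Clec4b1 (-2.99; 0.0175) fell. With the replicate block, Clec4a2, an inhibitory receptor, was lower as well (-1.10; edgeR adjusted p 0.00262). The median of these 13 was -0.61.

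In the other 5 classes edgeR called no gene of either list without the block and limma-voom none, while DESeq2 called 7, out of 20 to 24 signalling genes and 4 to 15 lectins tested. Over all genes, DESeq2 called 319 of 7911 in macrophage-like, 133 of 8248 in monocyte-like and 324 of 10426 in endothelial-like cells. It called 44 of 5947 in cDC1-like and 42 of 5929 in cDC2-like cells. With the block, edgeR called 6.95% of all genes in macrophage-like, 2.97% in monocyte-like and 3.35% in cDC1-like cells. The shares were 1.6% in cDC2-like and 4.2% in endothelial-like cells. By that fit, Mgl2, a galactose-type macrophage lectin, rose in macrophage-like (3.89, edgeR adjusted p 3.39e-11) and cDC2-like cells (1.23, 0.033). In monocyte-like cells Mrc1 rose (1.86; edgeR adjusted p 0.021) and Clec5a fell (-1.64; 0.0166). Fcer1g, the adaptor of Clec4e and Clec4d, gave -0.49 there (edgeR adjusted p 0.21), and was not called. The other genes called with the block were Nfatc1 in macrophage-like, Ptpn6 and Clec2d in cDC1-like, Relb in cDC2-like, and Clec4b1, Olr1 and Cd209b in endothelial-like cells.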

How the data were processed

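Liver non-parenchymal cells of HFD-fed mice were profiled by scRNA-Seq, with 3 vehicle-treated and 3 ginkgetin-treated libraries. The authors deposited 1 table of raw UMI counts per library, not normalized. The build, GRCm38 (mm10), comes from the submitters' processing notes, while aligner and gene annotation are not given in the sources used here. The study states a filter of 250 to 5000 UMIs and under 5% mitochondrial genes, yet the tables held barcodes outside both limits. A reading of that range as genes per cell was used (27544 cells), since the UMI reading left 16821. The labels' RNA extraction text describes a kit for total RNA, whereas the sample description names 10X Genomics.

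Cells were clustered in scanpy 1.11.5 (2000 variable genes, 30 principal components, 15 neighbours, Leiden resolution 1, and 0.5 for endothelial cells), with the receptor genes left out. A class needed 3 markers detected in at least 25% of cells and 2-fold above the other cells, and the 10 leading genes were read against other classes. Scrublet marked 0.0286 to 0.192% of barcodes as doublets, so this caller did not work, and no doublet was removed. Barcodes shared by 2 libraries numbered 0 to 85. Counts were summed per library and class (at least 10 cells) and tested by edgeR 4.0.16 (quasi-likelihood, TMM, filterByExpr, group only, R 4.3.3), with Benjamini-Hochberg adjustment over all genes. DESeq2 1.42.0 and limma-voom (limma 3.58.1) were alternatives, as were other filters, class rules, scalings, blocks and left-out libraries. The script was tested on simulated data. CPM printed here are plain, whereas fold changes follow TMM. A value is under the floor when it rests on fewer than 3 counts, which covers counting error only.

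Same-numbered samples of both groups deviated together in every class tested (correlations of 0.248 to 0.900 across genes, for each of the 3 pairs). Each sample was read against the mean of its own group, so a set difference of replicate 3 can by itself give such correlations. Samples of unlike number were not compared, so a pairing of replicates 1 and 2 is not shown. Results with the replicate block should be read with that. No label says what the number marks. For the 6 classes tested, the fit with the replicate block is printed or named where it changed the call of a receptor or of a gene of the partner lists. Barcode sets and symbols set replicate 3 apart: 506 gene rows had 100 or more UMIs there and 0 in replicates 1 and 2.

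Fold changes are given for receptors with a mean of 50 CPM in at least 1 group, the 3 most alike genes for each receptor, and called genes of 2 partner lists. The receptors, lists and markers were chosen with earlier results of these data known, and the thresholds for naming clusters were set after seeing them. Promoters come from RefSeq (GRCm38.p6).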

Additional observations from a re-analysis of the deposited data

Results flagged for a closer look

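The change with ginkgetin differed between myeloid classes for 2 receptors, by edgeR fits of pairs of classes with the library as a block, a test chosen after seeing the data. For Cd207, the log2 change in macrophage-like cells was 2.54 above that in Kupffer-like cells (adjusted p 1.67e-10). The change of Cd207 in monocyte-like cells was -4.23 relative to macrophage-like cells (adjusted p 0.000499), at levels near the floor in monocyte-like cells, where the gene was too low to be tested alone, so no change in those cells is read from it. That value was -9.02 without ginkgetin replicate 2 and -7.84 without the cells of highest doublet score, and with marker scores it was 0.17 and not called (adjusted p 0.961). For Clec4n, the change in macrophage-like cells was 1.48 above that in Kupffer-like cells (adjusted p 2.65e-05), and that in monocyte-like cells was -2.82 relative to macrophage-like cells (adjusted p 6.33e-06). All 4 rest on 13, 38 and 36 macrophage-like cells of ginkgetin-treated mice.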

How the results depend on the processing

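In Kupffer-like cells the 2 receptors called became 0 with marker scores, 1 at the finer clustering (resolution 2), 1 without a gene filter, 1 without TMM, 3 with DESeq2, 3 with either block, and 0 to 2 on leaving out 1 library. All genes called there numbered 782 of 9158, then 623 of 8913 with marker scores and 503 of 8647 at resolution 2. They were 582 of 16257 without a gene filter, and of 9158 genes 1243 without TMM and 1114 with DESeq2. The replicate block gave 1403 and the barcode-set block 1478 of 9158. On leaving out 1 library, they were 1219 of 9258 without vehicle replicate 3 and 0 to 249 otherwise. In macrophage-like cells, 0 receptors became 5 with the replicate block, 4 with a block for the barcode set, 2 with replicates 1 and 2 only, 2 with DESeq2, 2 without TMM, and 0 to 2 on leaving out 1 library (2 without vehicle replicate 3). All genes called there numbered 15 of 7911, then 550 and 484 with the replicate and barcode-set blocks, 319 with DESeq2 and 77 without TMM. They were 233 of 7802 with replicates 1 and 2 only. On leaving out 1 library, they were 0 to 148 (148 of 4190 without vehicle replicate 3). In monocyte-like cells, 0 receptors became 3 with the replicate block, 3 with the barcode-set block and 4 with DESeq2. Of 8248 genes, 0 became 245, 211 and 133 by the same settings. In cDC1-like cells 0 receptors became 1 with either block (199 and 221 of 5947 genes). In cDC2-like cells 0 became 1 with the barcode-set block (156 of 5929 genes). In endothelial-like cells 0 became 2 with either block (438 and 465 of 10426 genes) and 1 with replicates 1 and 2 only (353 of 10385 genes). In the 6 classes tested, the replicate block changed no call of a receptor other than those named in the report. In classical monocyte-like cells fitted alone, it called 3 of 7 receptors (1 higher and 2 lower), where 0 were called without it. The counts over all 8047 genes were 139 with it and 0 without it. Partner genes called numbered 4, and 2 with the UMI filter, 2 with marker scores, 19 with the replicate block, 19 with the barcode-set block, 7 with replicates 1 and 2 only, 13 with DESeq2, 8 without TMM and 0 to 6 on leaving out 1 library. Receptors whose change differed between Kupffer-like and macrophage-like cells numbered 2, 4 with marker scores, 3 without TMM and 2 to 3 on leaving out 1 library. Of all genes, 3.13% differed, then 2.81%, 3.7% and 1.55 to 3.61% in the same order. Between macrophage-like and monocyte-like cells the 2 receptors became 3 without TMM, and 2 to 3 on leaving out 1 library (3 without vehicle replicate 3). The shares of all genes were 1.75%, then 2.6% and 1.35 to 2.11%. Between Kupffer-like and monocyte-like cells the 0 receptors became 1 without TMM, 1 with marker scores, 1 with no cell filter, 1 without the highest doublet scores, and 0 to 2 on leaving out 1 library. Of all genes, 4.27% differed, then 5.77%, 3.56%, 4.1%, 4.53% and 1.86 to 4.36% in the same order.

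Log2 fold changes that turned sign were Clec4f in Kupffer-like cells (0.56 with the UMI filter, 0.40 without TMM, -0.34 to 0.089 on leaving out 1 library, above 0 without vehicle replicate 3 and, at 0.016, without ginkgetin replicate 1), Clec4f in macrophage-like cells (-1.996 with marker scores), Clec4g in endothelial-like cells (-0.093 with the UMI filter, -0.16 with replicates 1 and 2 only, -0.14 to 0.17 on leaving out 1 library, below 0 without vehicle replicate 3), Clec4e in patrolling monocyte-like cells alone (0.052), Clec4n in Kupffer-like cells (0.041 with the UMI filter), Clec12a in cDC2-like cells (-0.11 with marker scores, -0.022 to 0.31 on leaving out 1 library, -0.0030 among them) and Cd207 in macrophage-like cells (-0.025 with marker scores). The difference of the change of Cd207 between monocyte-like and macrophage-like cells became 0.17 with marker scores, and -9.02 to -3.34 on leaving out 1 library. Differences in thinned share that turned sign, in percentage points, were Clec4n in Kupffer-like cells (1.66 at 500 UMIs, 8.04 with the UMI filter, -2.43 to 1.09 on leaving out 1 library, 0.44 and 0.63 among them), Clec9a in cDC1-like cells (-2.04 at 500 UMIs, -2.60 without thinning, -5.56 to 4.65 on leaving out 1 library, -0.69 and -1.28 among them), Clec12a in macrophage-like cells (-1.57 at 500 UMIs, -11.6 without thinning), Clec12a in cDC1-like cells (-8.69 without thinning), Cd207 in Kupffer-like cells (0.34 with the UMI filter) and Clec4f in macrophage-like cells (-0.013 to 6.57 on leaving out 1 library, below 0 without ginkgetin replicate 2). The cause was not tested. Of 375 fits of single fold changes, 322 kept both direction and side of the threshold. The UMI filter left no macrophage-like, cDC1-like or cDC2-like class, and resolution 2 left too few macrophage-like cells. Few cells limit the ginkgetin arm of myeloid classes.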

Other observations

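Neutrophil-like cells, which led for Clec4e and Clec4d where they were separated, were named as a class only when myeloid cells were clustered at resolution 2, with 12, 4 and 28 cells in vehicle-treated and 0, 11 and 9 cells in ginkgetin-treated mice. In Kupffer-like cells thinned to 1000 UMIs, 20.0, 14.2 and 19.7% of cells of vehicle-treated mice carried UMIs of both Clec4f and Cd207, beside products of the single shares of 20.6, 12.4 and 19.8%. In ginkgetin-treated mice the values were 22.5, 17.2 and 10.5%, beside 23.1, 17.8 and 10.4%.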
